A study of Mus musculus with 3 samples.

Results

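The 10 genes described here encode enzymes that make serine and glycine, that carry single carbon units on folate, and that make proline. They were chosen by name, with earlier results of these libraries known, so their changes are a description of the chosen genes. Levels were analysed for 9 of the 10 genes, and the level of *Shmt2* was not analysed here. Levels are in FPKM, the number of fragments of a gene scaled to the length of its exons and to the depth of the library. All 9 genes are among the 9226 genes of the table with a mean FPKM of at least 1, and their lowest FPKM was 4.87.

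The cells were NIH3T3, an established line of mouse embryonic fibroblasts, kept in serum-free IMDM before and during treatment. The 3 treatments, of 24 h each, were medium alone (CTRL), 100 ng/mL GDF15 and 4 ng/mL TGF-β. GDF15 is a divergent member of the TGF-β superfamily, and the study asked whether its effect on fibroblasts resembles that of TGF-β. RNA was pooled within each treatment and 1 stranded mRNA library was sequenced from each pool, so the treatments have no replicates and were not tested against each other. The results speak for 1 cell line, 1 dose of each factor and 1 time.

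Serine is made from a glycolytic intermediate in a short chain of reactions, and glycine is made from serine by passing a carbon unit to tetrahydrofolate. Mitochondrial folate enzymes oxidise that unit to formate, which leaves for the cytosol and feeds purine, thymidylate and methionine synthesis. Proline is made from glutamate. Glycine and proline make up much of the collagen chain, and several genes of these pathways are well known targets of ATF4, the transcription factor of the amino acid response.

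The label of the cells was checked first. Of 10 fibroblast markers, 9 had a mean FPKM of at least 1, among them *Col1a1*, *Pdgfrb* and *Vim*, and *Fap* stayed between 0.0184 and 0.0643. The summed FPKM of the 10 markers was between 16018 and 18500. The sum was between 0.268 and 0.735 for 5 epithelial markers, between 1.34 and 1.86 for 5 haematopoietic markers and between 0.252 and 0.329 for 4 endothelial markers. *Epcam*, *Krt19* and *Emr1* were listed at 0 in all 3 libraries. Of the markers of these other cell types, only the haematopoietic *Cd68* had a mean FPKM of at least 1. It was at 1.66 in CTRL, 1.14 with GDF15 and 1.67 with TGF-β. The depth was estimated from the step of a single fragment among low values and was about 17600000 fragments in the CTRL library, 20700000 in that of GDF15 and 16900000 in that of TGF-β.

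Changes are differences of log2(FPKM + 1), and a gene is counted as over 1.5-fold or 2-fold on this scale. Ratios of FPKM are given beside them, with a 95% interval for counting error alone, from estimated fragments. Each change is also set beside the genes nearest in expression, as a number of local spreads (scaled median absolute deviations) from their median. As a group the 9 genes were higher with TGF-β, where more RNA per cell and a changed mix of cells cannot be told apart in bulk RNA. The median of their changes was 0.83 with TGF-β and 0.33 with GDF15, beside -0.07 and -0.03 over the 9226 genes. TGF-β put 6 of the 9 genes over 1.5-fold up, beside 2.54% of the 9226 genes, and 3 of the 9 over 2-fold up, beside 0.932%. GDF15 put 3 of the 9 over 1.5-fold up, beside 1.27%, and 0 of the 9 over 2-fold up, beside 0.347%. No member was over 1.5-fold down by either stimulus, beside 1.55% of the 9226 genes by GDF15 and 3.06% by TGF-β. Because CTRL serves in both comparisons, they are not independent of each other.

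The FPKM of the 9 genes summed to 115.7 in CTRL, 142 with GDF15 and 195 with TGF-β. In CTRL the genes ran from 4.87 (*Pycr1*) to 29.9 (*Psat1*) with a median of 8.98, below the median of 12.9 over the 9226 genes. In TGF-β the median of the 9 genes was 21.5, above the median of 12.2 over all. The order of the libraries from low to high was CTRL, GDF15 and TGF-β for 7 of the 9 genes, an order that 13.7% of the 9226 genes had. *Psat1* and *Shmt1* had other orders.

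**Figure D1:**
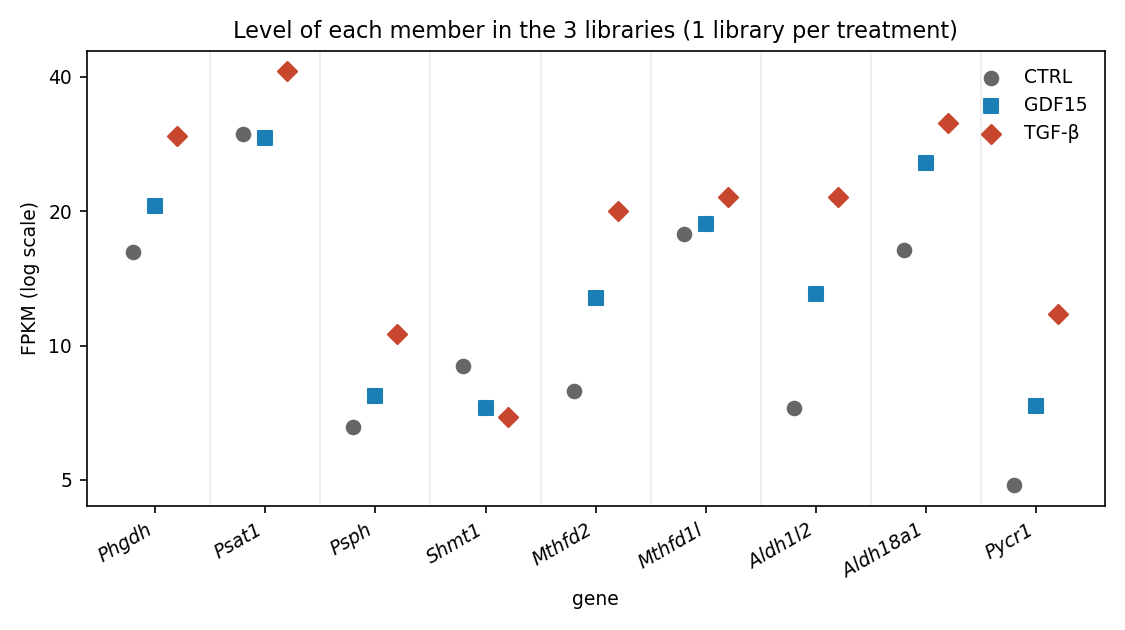
FPKM (log axis) of each of the 9 genes in the CTRL, GDF15 and TGF-β libraries, 1 point per library and no error bar because each treatment has 1 library. TGF-β is the highest point for 8 genes, as it was for 20.8% of the 9226 genes, while *Shmt1* is highest in CTRL at 8.98.

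The 3 serine synthesis genes were each higher with TGF-β than with GDF15 or in CTRL. *Phgdh* encodes phosphoglycerate dehydrogenase, which draws carbon out of glycolysis and opens the chain (chromosome 3 of GRCm38, 98313170 to 98339990, minus strand). Its FPKM was 16.2 in CTRL, 20.6 with GDF15 and 29.4 with TGF-β. Relative to CTRL the ratio was 1.27 (counting interval 1.14 to 1.42) with GDF15 and 1.82 (1.64 to 2.02) with TGF-β. The TGF-β library is thus the highest of the 3, and its change of 0.83 was 4.04 local spreads from the median of genes of like expression. The change of 0.33 by GDF15 was 1.63 local spreads away. GENCODE holds 9 processed pseudogenes with at least 150 bases at 95.3% to 98.7% identity to the *Phgdh* transcript, and the effect of such copies on its counts was not tested.

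*Psat1* encodes phosphoserine aminotransferase, the next enzyme of the chain (chromosome 19, 15904678 to 15947337, minus strand), and was the most abundant of the 9 genes in every library. Its FPKM was 29.9 in CTRL, 29.1 with GDF15 and 41.1 with TGF-β. CTRL and GDF15 were not separated by counting error, with a ratio of 0.975 (0.907 to 1.05). The sign of this change, -0.03, turned with scaling to a common upper quartile and with removal of the running median by expression, under which it reached at most 0.02. TGF-β alone was higher, by a change of 0.45 and a ratio of 1.38 (1.29 to 1.48), which is under 1.5-fold and 2.64 local spreads from the median of like genes.

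*Psph*, phosphoserine phosphatase, releases free serine (chromosome 5, 129765558 to 129787449, minus strand). Its FPKM was 6.57 in CTRL, 7.69 with GDF15 and 10.6 with TGF-β. The ratio to CTRL was 1.17 in GDF15, with an interval of 0.977 to 1.41 that holds 1, and 1.62 (1.35 to 1.93) in TGF-β. Its change by TGF-β, 0.62, lay closest above the 1.5-fold line among the 6 genes past it. *Psph* shares 452 exon bases with *Cct6a* on the opposite strand, whose FPKM was between 81.7 and 86.9 in the 3 libraries. The use of strand in counting is not given in the sources used here, and the part of shared reads in the values of *Psph* was not tested.

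*Shmt1*, the cytosolic serine hydroxymethyltransferase, moves a carbon unit from serine to folate in the cytosol and supports thymidylate synthesis (chromosome 11, 60788104 to 60811718, minus strand). It was the only one of the 9 genes that was lower with both stimuli. Its FPKM was 8.98 in CTRL, 7.23 with GDF15 and 6.92 with TGF-β. The changes of -0.28 by GDF15 and -0.33 by TGF-β were 1.31 and 1.22 local spreads below the median of like genes, so many genes of like level changed as much. GDF15 and TGF-β were not separated by counting error, with a TGF-β to GDF15 ratio of 0.956 (0.829 to 1.10). *Shmt1* shares 184 exon bases with *Smcr8* on the opposite strand, with an FPKM of at most 14, and the part of shared reads was not tested.

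The mitochondrial one-carbon genes held the largest changes of the group. *Mthfd2* encodes the mitochondrial methylenetetrahydrofolate dehydrogenase and cyclohydrolase, an enzyme of embryonic and dividing cells (chromosome 6, 83305691 to 83325908, minus strand). Its FPKM was 7.92 in CTRL, 12.8 with GDF15 and 20.01 with TGF-β. Relative to CTRL the ratio was 1.62 (1.40 to 1.86) with GDF15 and 2.53 (2.20 to 2.89) with TGF-β, and the intervals of the stimuli do not overlap. The change of 1.24 by TGF-β was 6.68 local spreads from the median of like genes and ranked at place 51 from the top of the 9226 genes. The change of 0.63 by GDF15 was 2.94 local spreads away, at place 94.

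*Aldh1l2* encodes the mitochondrial formyltetrahydrofolate dehydrogenase, which oxidises the folate-bound unit to carbon dioxide and yields NADPH (chromosome 10, 83487450 to 83534140, minus strand). It had the largest change of the 9 genes by each stimulus. Its FPKM was 7.25 in CTRL, 13.1 with GDF15 and 21.5 with TGF-β. The ratio to CTRL was 1.80 (1.66 to 1.97) with GDF15 and 2.96 (2.73 to 3.22) with TGF-β. The changes of 0.77 and 1.45 ranked at places 57 and 36 from the top. At 6027 bases its transcript is the longest of the 9, and the change by GDF15 was higher for longer transcripts among 5404 genes whose mean FPKM was 10 or more (Spearman's rho 0.52, across genes, which share the libraries). With the trends with length and GC content removed, its change by GDF15 was 0.65, still over 1.5-fold. *Aldh1l2* shares 1056 exon bases with *D10Wsu102e* on the opposite strand, 14.1% of its annotated exon bases, and the part of shared reads was not tested. *D10Wsu102e* was lower with the stimuli, with an FPKM of 12.3 in CTRL, 11.8 with GDF15 and 10.7 with TGF-β.

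*Mthfd1l* encodes the mitochondrial formyltetrahydrofolate synthetase, which releases formate for the cytosol (chromosome 10, 3973118 to 4167081, plus strand). It changed least among the mitochondrial genes. Its FPKM was 17.7 in CTRL, 18.7 with GDF15 and 21.6 with TGF-β. Relative to CTRL the ratio was 1.05 (0.976 to 1.14) in GDF15, an interval that holds 1, and 1.22 (1.12 to 1.31) in TGF-β. The change of 0.27 by TGF-β was 1.54 local spreads from the median of like genes.

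**Figure D2:**
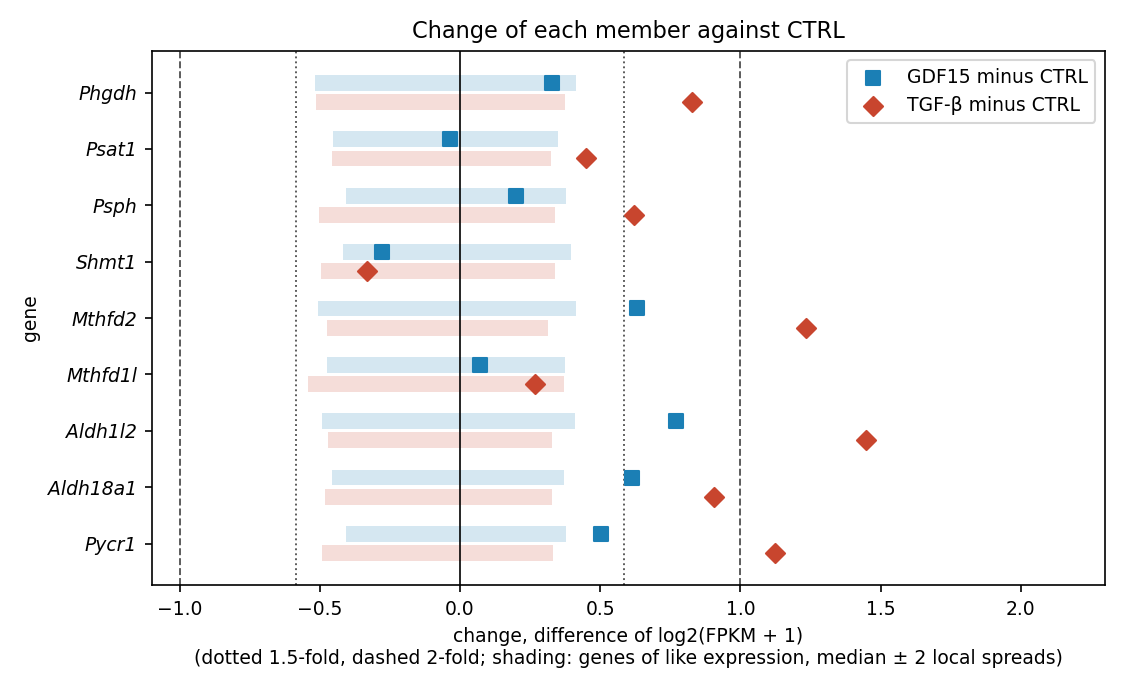
Change of each of the 9 genes against CTRL by GDF15 (squares) and TGF-β (diamonds), as differences of log2(FPKM + 1), with dotted lines at 1.5-fold, dashed lines at 2-fold, and shading for the median ± 2 local spreads of the genes nearest in expression. The TGF-β points of 7 genes lie above the shading, and so do the GDF15 points of *Mthfd2*, *Aldh1l2*, *Aldh18a1* and *Pycr1*. The share of all genes above the shading is not given here, so these points are not set against a background.

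Both proline synthesis genes were higher with both stimuli. *Aldh18a1* encodes the bifunctional synthase that turns glutamate into pyrroline-5-carboxylate (chromosome 19, 40550257 to 40588463, minus strand). Its FPKM was 16.4 in CTRL, 25.6 with GDF15 and 31.6 with TGF-β. The ratio to CTRL was 1.56 (1.45 to 1.69) with GDF15 and 1.93 (1.79 to 2.08) with TGF-β. The larger step was that from CTRL to GDF15, and the TGF-β to GDF15 ratio of 1.23 (1.16 to 1.31) was the smallest among the 6 genes over 1.5-fold by TGF-β.

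*Pycr1* encodes the mitochondrial reductase that completes proline (chromosome 11, 120635712 to 120643769, minus strand), and was the least abundant of the 9 genes in CTRL. Its FPKM was 4.87 in CTRL, 7.32 with GDF15 and 11.8 with TGF-β. Relative to CTRL the ratio was 1.504 (1.29 to 1.76) with GDF15 and 2.42 (2.09 to 2.81) with TGF-β. The change of 1.12 by TGF-β was 5.84 local spreads from the median of like genes. The change of 0.50 by GDF15 falls just short of the 1.5-fold line, which is 0.58 on this scale, although the ratio is just over 1.5, because adding 1 to the FPKM shrinks the change of low genes. *Aldh18a1* at 0.61 lies just past it.

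Promoter sequence was examined for this gene set because several members are known ATF4 targets. RefSeq windows of 300 bases on GRCm38.p6 (250 before and 50 after the start) were found for 9 of the 10 members, *Shmt2* included, and none was found for *Aldh1l2*. Searched on both strands were the core of the element bound by C/EBP and ATF4 dimers, TGATGNAA, and the E-box CACGTG. The first occurred in the window of 1 of the 9 members, *Pycr1*, beside 3.97% of all 32851 windows and 2.18% of the 9023 windows of the expressed genes. The E-box occurred in 1 of the 9, *Aldh18a1*, beside 7.15% and 10.3%. The stretches are shown because they are the only matches among the members, with *Asns*, the classical ATF4 target, for comparison, and capitals mark the motif.
*Pycr1*, chr11:120643828-120643867, minus strand, motif at 103 to 96 bases before the start: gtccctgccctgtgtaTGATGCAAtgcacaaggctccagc
*Asns*, chr6:7693210-7693248, minus strand, motif at 23 to 16 bases before the start: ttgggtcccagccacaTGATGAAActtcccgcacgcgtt
*Aldh18a1*, chr19:40588501-40588538, minus strand, motif at 59 to 54 bases before the start: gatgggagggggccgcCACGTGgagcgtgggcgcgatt
A match is a string of letters and was not tested as a binding site, and the absence of a match concerns these windows only.

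Set against GDF15 directly, TGF-β was higher for 8 of the 9 genes. The median difference was 0.48, beside -0.04 over the 9226 genes, most of which were not higher in TGF-β. *Mthfd2*, *Aldh1l2* and *Pycr1* were over 1.5-fold higher in TGF-β than in GDF15, beside 0.91% of the 9226 genes, none of the 9 was over 2-fold higher, beside 0.13%, and none was over 1.5-fold lower, beside 0.629%. The FPKM of these 3 genes stood in ratios of 1.56 (1.40 to 1.75), 1.64 (1.54 to 1.75) and 1.61 (1.42 to 1.82). *Shmt1* differed by -0.06, a sign that turned to 0.01 with the running median by expression removed. The local spread in this comparison was narrower, with a median of 0.15 against 0.21 and 0.22 in the comparisons with CTRL.

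The balance between isoenzymes differed between libraries for *Mthfd2* and *Pycr1*, and little for *Mthfd1l*. *Mthfd2l*, the other mitochondrial dehydrogenase, had an FPKM of 3.22 in CTRL, 3.16 with GDF15 and 3.46 with TGF-β, and *Mthfd1*, the cytosolic trifunctional enzyme, 10.8, 12.2 and 12.7. The ratio of *Mthfd2* to *Mthfd2l* was 2.46 in CTRL, 4.05 with GDF15 and 5.79 with TGF-β, and that of *Mthfd2* to *Mthfd1* was 0.734, 1.05 and 1.58. *Mthfd2* was thus below the cytosolic enzyme in CTRL and above it in TGF-β, while *Mthfd1l* to *Mthfd1* stayed between 1.53 and 1.70. *Aldh1l1*, the cytosolic counterpart of *Aldh1l2*, was barely detected, at an FPKM of 0.0194 to 0.0795.

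Of the pyrroline-5-carboxylate reductases, *Pycrl*, the cytosolic form, had an FPKM of 14.1 in CTRL, 11.9 with GDF15 and 12.7 with TGF-β. The ratio of *Pycr1* to *Pycrl* was 0.345 in CTRL, 0.616 with GDF15 and 0.930 with TGF-β, so the mitochondrial form came close to the cytosolic one in the TGF-β library. Within the serine chain, *Psat1* to *Phgdh* was 1.85 in CTRL and about equal in GDF15 and TGF-β at 1.42 and 1.40.

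**Figure D3:**
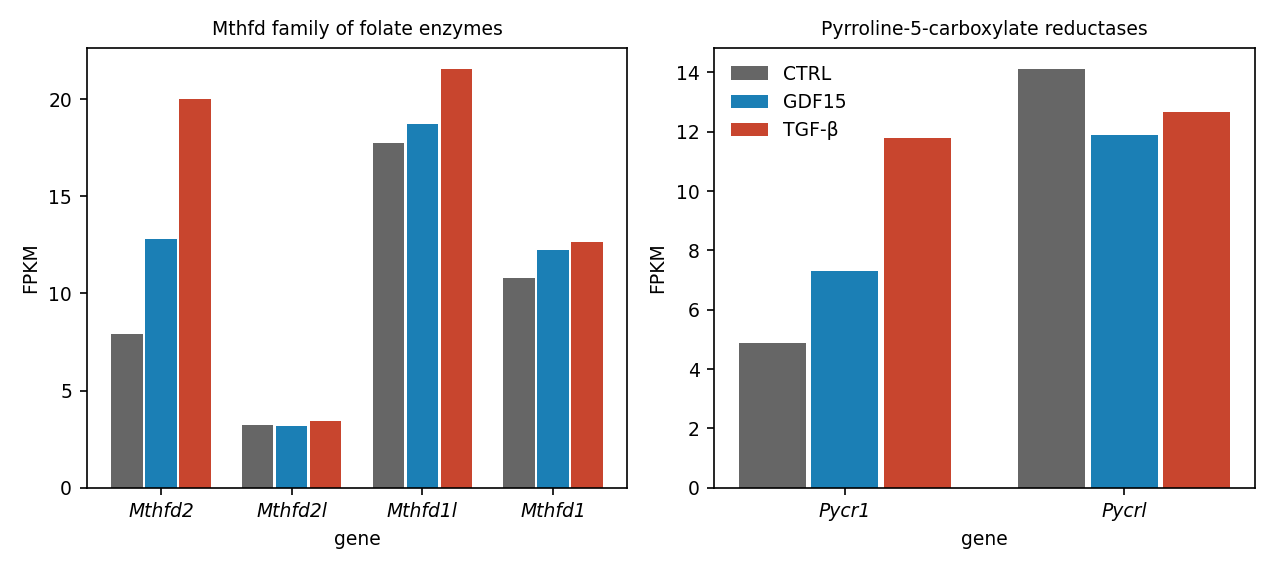
FPKM of the *Mthfd* family (left) and of *Pycr1* and *Pycrl* (right) in the CTRL, GDF15 and TGF-β libraries, 1 bar per library with no error bar because each treatment has 1 library. *Mthfd2* and *Pycr1* climb from CTRL to TGF-β, while *Mthfd2l* stays between 3.16 and 3.46 and *Pycrl* is highest in CTRL at 14.1.

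The neighbouring steps were followed in lists of genes that passed the same minimum FPKM. Each count is to be read against the 9226 genes, of which 1.27% were over 1.5-fold up and 1.55% down by GDF15, and 2.54% up and 3.06% down by TGF-β, so that a count of 0 in a short list is near the background. Of 14 other folate and one-carbon genes, 0 were over 1.5-fold in either direction by either stimulus, with medians of -0.01 by GDF15 and 0.02 by TGF-β. Of 11 purine synthesis genes, 0 were over 1.5-fold, with medians of 0.02 and 0.06. Of 8 other proline and glutamate enzymes, 0 were over 1.5-fold, with medians of 0.06 and -0.04. The medians of these 3 lists lay near those of all genes, which were -0.03 by GDF15 and -0.07 by TGF-β.

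Among 8 genes of glycine cleavage and of serine and glycine breakdown, 1 was over 1.5-fold up by TGF-β and 0 by GDF15. It was *Cth*, the enzyme that makes cysteine from cystathionine, with an FPKM of 1.37 in CTRL, 2.21 with GDF15 and 3.47 with TGF-β. By the ratio of FPKM *Cth* was over 1.5-fold with GDF15 too, at 1.61, and *Amt*, the aminomethyltransferase of glycine cleavage, was at a ratio of 0.652 with GDF15, and adding 1 to these low values keeps both out of the count. *Gldc*, the decarboxylase of glycine cleavage, was listed at 0 in CTRL and TGF-β and had an FPKM of 0.0129 in GDF15.

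Among 13 transporters, 3 were over 1.5-fold up by TGF-β, beside 2.54% of all 9226 genes, and 0 by GDF15, beside 1.27%. *Slc1a5*, a carrier of glutamine and other neutral amino acids, had an FPKM of 28.8 in CTRL, 34.2 with GDF15 and 58.8 with TGF-β, a change of 1.004 by TGF-β. *Slc1a4*, a carrier of serine and alanine, was at 19.9, 27.1 and 32.2, and *Slc7a1*, a carrier of arginine and lysine, at 8.73, 12.0 and 16.9. The median of the 13 was 0.17 by each stimulus, and 0.05 by GDF15 and 0.08 by TGF-β with the trends with length and GC content removed. In the 10 glycolytic genes leading to the branch point of serine synthesis, 1 was over 1.5-fold up by TGF-β, *Pfkp* with an FPKM of 11.8, 15.99 and 18.98. The medians of these 10 were 0.04 by GDF15 and 0.24 by TGF-β, and 0.18 and 0.32 with the trends with length and GC content removed. *Hk2*, a hexokinase, had a ratio of FPKM of 1.57 with TGF-β and a change of 0.56, just short of the line.

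*Atf4* itself had an FPKM of 156 in CTRL, 173 with GDF15 and 214 with TGF-β, a change of 0.15 by GDF15 and 0.45 by TGF-β. Of 15 genes in the list of ATF4 and its classical targets, 4 were over 1.5-fold up by TGF-β, beside 2.54% of all 9226 genes, and 0 by GDF15, beside 1.27%. *Asns*, asparagine synthetase, was at 31.5, 45.5 and 74.2, and *Trib3*, a pseudokinase of the stress response, at 13.9, 19.3 and 29.9. *Nupr1* and *Chac1* had changes of 0.83 and 0.69 by TGF-β. The list did not move as one, with 7 of the 15 genes lower by GDF15 and 4 lower by TGF-β. *Ddit3*, the stress factor CHOP, had an FPKM of 71.8 in CTRL, 56.8 with GDF15 and 47.8 with TGF-β. Its change of -0.58 by TGF-β is just short of the line, although its ratio of FPKM, 0.665, is just past 1.5-fold down. The medians of the list were 0.11 by GDF15 and 0.21 by TGF-β. By GDF15 the median was 0.16 with a common upper quartile and 0.08 with the trends with length and GC content removed. ATF4 is largely controlled in translation, which mRNA levels do not show.

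Of 19 cytosolic tRNA synthetases, which also include ATF4 targets, 3 were over 1.5-fold up by TGF-β, beside the same 2.54%, and 0 by GDF15, beside 1.27%. *Gars*, the glycine enzyme, was at 57.5, 74.2 and 93.3, *Mars*, the methionine enzyme, at 12.0, 14.4 and 20.2, and *Eprs*, which charges both glutamate and proline, at 30.05, 42.6 and 45.9. The medians were 0.20 by GDF15 and 0.33 by TGF-β.

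For collagen itself, 4 of 6 fibrillar chains were over 1.5-fold up by GDF15, beside 1.27% of all 9226 genes, and 5 of 6 by TGF-β, beside 2.54%. The medians were 0.61 by GDF15 and 0.89 by TGF-β. The median by GDF15 was 0.49, under the 1.5-fold line, with the length trend removed, and 0.59 with the trends with length and GC content removed. *Col1a1* and *Col1a2* changed by 0.60 and 0.58 with GDF15 and by 0.79 and 0.66 with TGF-β. *Col5a1*, *Col5a2* and *Col11a1* changed by 0.62, 0.88 and 1.89 with GDF15 and by 1.004, 1.13 and 2.76 with TGF-β. *Col3a1* was the exception with TGF-β, at a change of -0.27. Of 6 prolyl hydroxylase genes, which modify the proline of collagen, *P4ha3* was over 1.5-fold up by both stimuli, with an FPKM of 7.42 in CTRL, 13.6 with GDF15 and 18.01 with TGF-β. *P4ha2* was over 1.5-fold up by TGF-β alone, at 32.3, 40.5 and 49.3, and its change of 0.32 by GDF15 does not show that the stimuli differ.

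**Figure D4:**
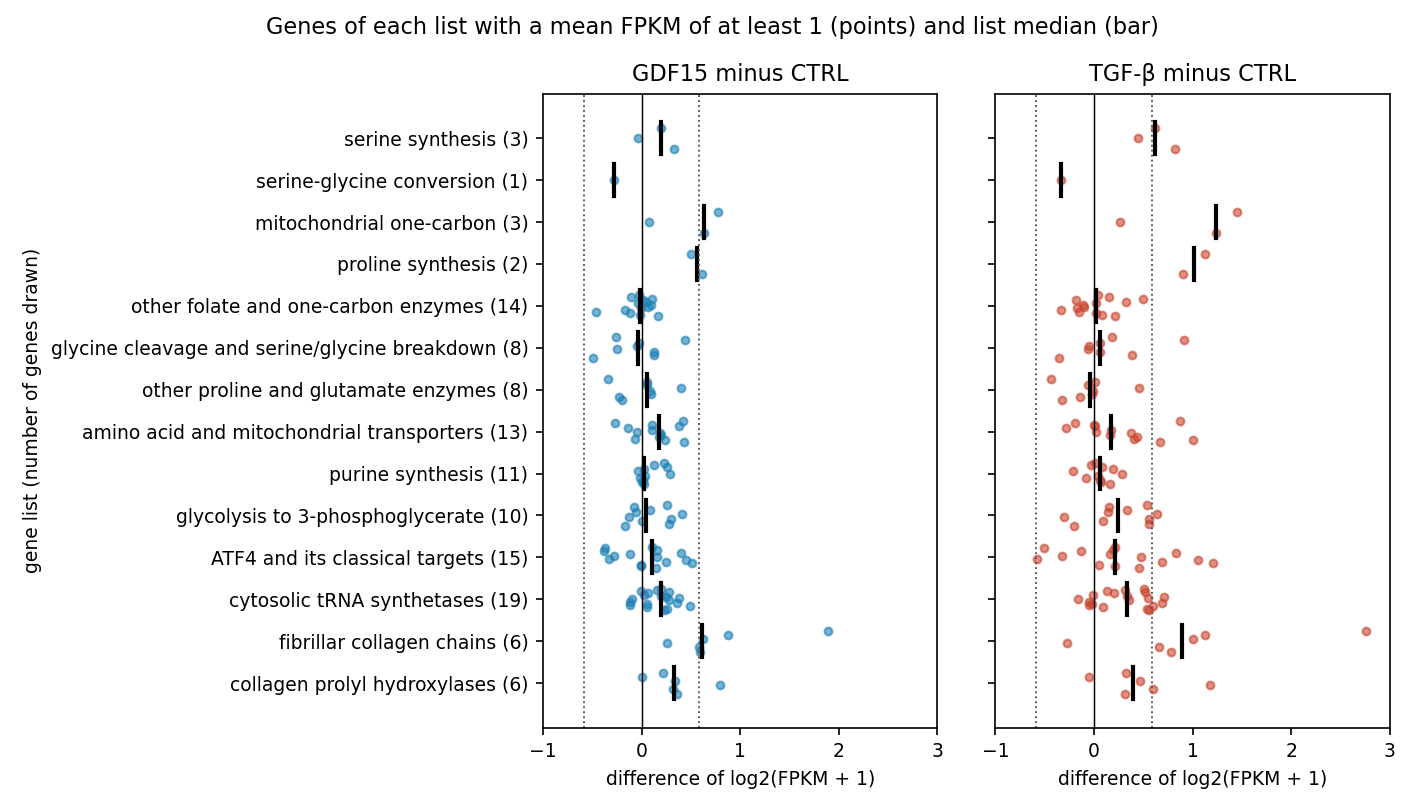
Change by GDF15 (left) and TGF-β (right), as a difference of log2(FPKM + 1), for each gene with a mean FPKM of at least 1 (points) and the median of each list (black bar), with dotted lines at 1.5-fold and the number of genes in brackets. The mitochondrial one-carbon and proline synthesis genes lie to the right at medians of 1.24 and 1.01 by TGF-β, while the other folate genes and the purine genes sit near 0.

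The genes most like the members were sought as those whose pair of changes lay nearest to the median pair of the 9 members (0.33 by GDF15 and 0.83 by TGF-β), by Euclidean distance over the 3 libraries. Among the 5 nearest of the 9226 genes were *Wwp2*, *Stard4*, *Fads3* and *Bhlhe40*, at distances of 0.0388 to 0.0603. *Stard4*, a carrier of sterols, had an FPKM of 10.8 in CTRL, 13.6 with GDF15 and 20.5 with TGF-β, and *Bhlhe40*, a transcriptional repressor, 18.5, 23.6 and 34.95. With 3 libraries such a likeness is loose.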

How the data were processed

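The authors sequenced stranded mRNA libraries in single-end mode and deposited Cufflinks FPKM for 15554 protein coding genes with a reviewed UniProt entry. The submitters' processing notes name mm10, TopHat 1.3.2, Bowtie 0.12.9 and Cufflinks 2.0.2. The gene annotation is not given in the sources used here. The authors' FPKM were used as deposited, and changes are differences of log2(FPKM + 1), which understate changes of low genes. Calls are changes over 1.5-fold or over 2-fold, the latter being the criterion of the study. Members and lists were chosen with earlier results of these data known. Named beyond the members are list genes over 1.5-fold by either stimulus with a mean FPKM of at least 1, isoenzymes, *Atf4*, the 5 nearest genes and a pair of collagen chains. *Gldc*, *Amt*, *Hk2*, *Ddit3*, *Col3a1* and genes overlapping members were named after their values were seen. Some genes that this rule names are not reported here.

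Local medians and spreads cover 501 genes. Depth came from genes with 1 transcript of over 3000 bases, where 71.2% to 76.1% of low values lay within 0.15 of whole fragments. Fragments per gene are estimates from the longest coding transcript in GENCODE M21 (GRCm38), matched for 14725 rows by symbol and 748 by an older symbol, with 81 not matched, and their intervals cover counting error only. Shared sequence was searched with BLAST+ 2.17.0 (at least 150 bases at 95% identity). Scripts ran in Python 3.11.15 (matplotlib 3.10.9, scipy 1.17.1, pandas 2.3.3, numpy 2.4.6), and were tested on simulated data. Other settings tried were pseudocounts of 0.5 and 0.1, none, a minimum mean FPKM of 1, a common upper quartile, removal of the running median by expression, and removal of cubic trends with transcript length and GC content.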

Additional observations from a re-analysis of the deposited data

How the results depend on the processing

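No paired analysis was possible because the treatments were sequenced as 1 library each, and leaving a library out was not possible either. Over the other settings tried, the median change of the 9 members stayed between 0.33 and 0.48 by GDF15, between 0.83 and 0.91 by TGF-β and between 0.43 and 0.50 for TGF-β minus GDF15. TGF-β put 6 members over 1.5-fold up and 3 over 2-fold under each of them. GDF15 put 3 over 1.5-fold up, or 4 without a pseudocount, when *Pycr1* passes. A minimum mean FPKM of 1 removes no member, so it could not change these values. Chosen after seeing the data was a count over the 5 members that share no exon bases or long near-identical stretch with another gene (*Psat1*, *Mthfd2*, *Mthfd1l*, *Aldh18a1* and *Pycr1*). Of these 5, 3 were over 1.5-fold up by TGF-β, fewer because fewer genes were counted, and their medians were 0.50 by GDF15 and 0.91 by TGF-β. Counting intervals of the FPKM ratio reach below 1.5 for *Mthfd2* (1.40) and *Aldh18a1* (1.45) by GDF15, for *Psph* (1.35) by TGF-β, and for *Mthfd2* (1.40) and *Pycr1* (1.42) in TGF-β against GDF15, so depth alone leaves these calls uncertain. The single pooled library of each treatment limits every comparison.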
